A study of Rattus norvegicus with 22 samples.

Results

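The interleukin 1 family and interleukin 6 were examined in oral squamous cell carcinomas (OSCC) of the rat tongue. The 10 genes were chosen by the array's gene name, as 4 agonists (Il1a, Il1b, Il18, Il33), the antagonist Il1rn, the decoy receptor Il1r2, the receptors Il1r1 and Il1rl1, the co-receptor Il1rap, and Il6. All 10 were on the array, among 19167 named genes, with 14 of its 30367 probes, and each gene is described by its brightest probe over the 22 arrays. The tissue came from 11 male F344 rats, about 33 weeks old, that had drunk water with 20 ppm of the carcinogen 4-NQO (4-nitroquinoline-1-oxide) for 10 weeks. Each rat gave 1 OSCC and 1 piece of phenotypically normal tongue from beside it, so that the normal tissue had been exposed to 4-NQO as well. The deposited titles call the animals of all 22 arrays untreated, and the treatment label of the normal pieces is none, while the protocols take both pieces from the same treated rats, and the protocols are followed here. RNA of each piece was measured on its own 1-colour Agilent array.

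Interleukin 1 is an alarm signal of injured epithelium and of myeloid cells. Il1a and Il1b act through the receptor Il1r1 together with the co-receptor Il1rap, and the signal runs through Myd88 to NF-kB and to genes for neutrophil-attracting chemokines, prostaglandin synthesis and interleukin 6. The same receptor is blocked by the antagonist Il1rn, and the decoy Il1r2 binds interleukin 1 without passing on a signal. Il33 is released from damaged epithelium and binds Il1rl1 (ST2), whose gene also makes a soluble form, and Il18 is cut to its active form by caspase-1, as Il1b is.

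The log2 level of a gene is the log2 of its signal minus that of the array's 75th percentile. Levels are comparable between arrays for 1 probe and not between probes. The 75th percentile lay between 236.8 and 654.9 signal units on the normal arrays and between 338.7 and 1414 on the OSCC arrays, and 48.4% to 56.08% and 52.27% to 65.49% of the probes were well above background. All 11 normal arrays and the OSCC arrays of animals 4 and 9 were scanned on 1 day, the other 9 OSCC arrays on another, and no slide held both tissues, so slide and tissue cannot be told apart. The epithelial genes Krt5, Krt14, Krt15, Krt13, Krt4 and Tp63 were well above background on all 22 arrays. In pieces of tissue, fewer cells of a type and less RNA per cell cannot be told apart.

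The 60-base probes below show the stretches of sequence that these probes read. For Il1a and Il1rl1 the main values come from another, brighter probe. They are written in the sense of the transcript, with rn4 positions from the array annotation. The Il1a probe (chr3:116914826-116914885, minus strand) is the dimmer of 2 for this gene. The Il1r2 probe (chr9:39316654-39319494, plus strand) and the Il6 probe (chr4:457279-458563, minus strand) span an intron, and so does the Il1rl1 probe (chr9:39619275-39620742, plus strand), which the annotation assigns to NM_001127689. Each of the 4 has a reading frame without a stop codon over its whole length. The brighter Il1rl1 probe lies upstream of it, at chr9:39617225-39617284, and is assigned to NM_013037.
Il1a: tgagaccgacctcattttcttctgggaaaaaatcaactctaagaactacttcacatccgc
Il1r2: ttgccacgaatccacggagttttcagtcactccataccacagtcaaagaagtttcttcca
Il1rl1: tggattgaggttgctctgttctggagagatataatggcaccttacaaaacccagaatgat
Il6: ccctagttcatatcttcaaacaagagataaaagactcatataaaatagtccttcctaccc

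**Figure D1:**
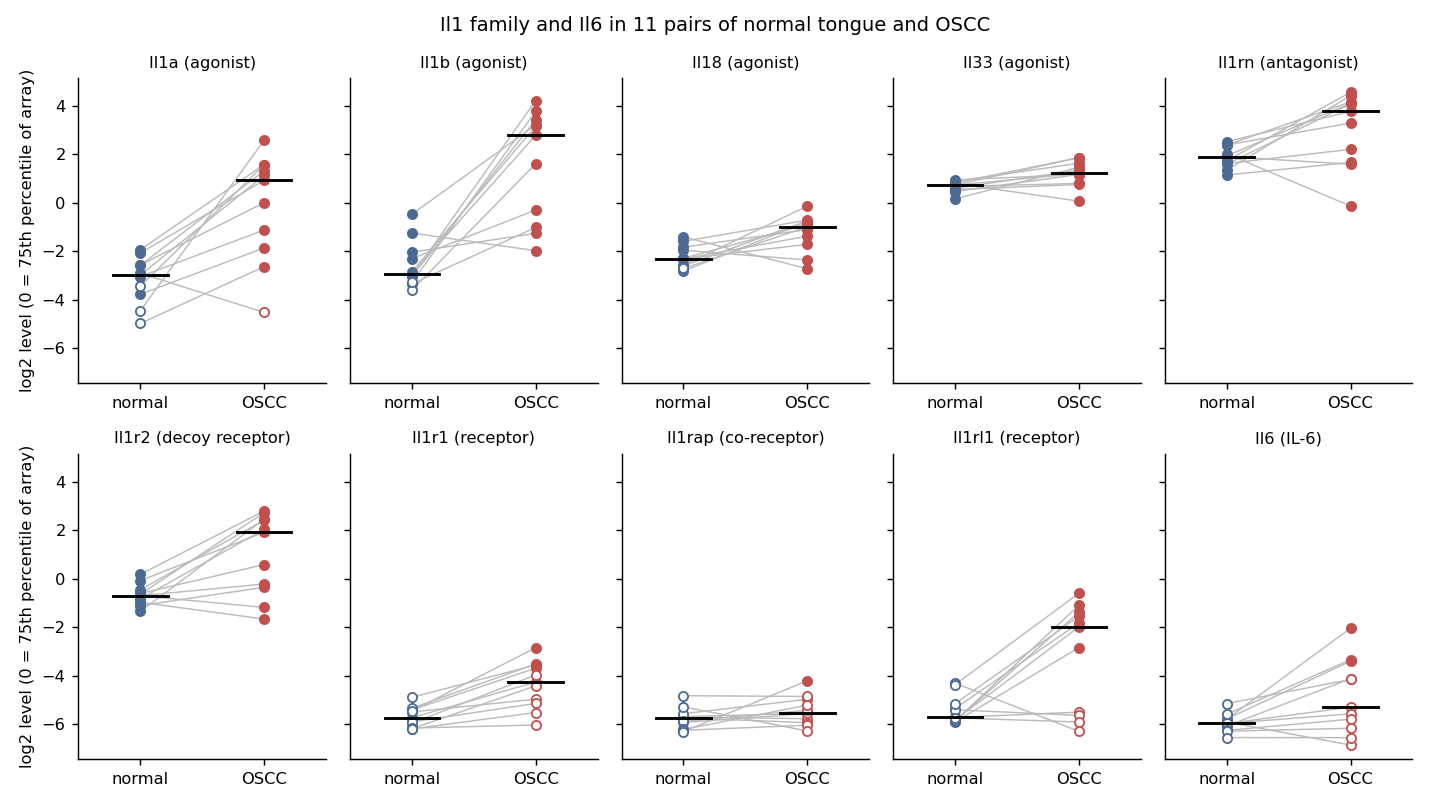
Log2 level of each gene (y axis, 0 is the 75th percentile of the array) in normal tongue and OSCC (x axis), with a grey line joining the pieces of 1 rat and a black bar at the median of 11. Filled points are arrays on which the probe was well above background and open points are those on which it was not. Il1r1, Il1rap, Il1rl1 and Il6 have no filled point in normal tissue.

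Of the 10 genes, 7 were called higher in OSCC and 0 were called lower. A call needs a Benjamini-Hochberg adjusted p below 0.05 over all probes, from limma with animal and tissue as terms, and a mean change of at least 2-fold. Over all genes on the array, by the brightest probe of each, 7.48% were called higher and 7.24% lower. The adjusted p was below 0.05 for 9 of the 10 at a change of any size, against 17.0% of all genes for a higher level in OSCC. The median log2 difference of the 10 was 1.27, against -0.21 over all 19167 genes. In none of the 10 did the OSCC levels lie above all normal levels, which was so for 0.694% of all genes.

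Among the agonists, Il1b and Il1a rose in OSCC. Il1b, the main secreted interleukin 1 of myeloid cells (probe at chr3:116964465-116964524, minus strand), had log2 levels from -3.60 to -0.47 in normal tissue, where the median was -2.94, and from -1.97 to 4.23 in OSCC, where it was 2.80. On 8 OSCC arrays it was above the highest normal array, and the OSCC of animals 22, 24 and 17 lay within the normal range. It was higher in OSCC in 10 of 11 pairs, by 4.17 ± 0.73 on the log2 scale (SE, n = 11), or 17.9-fold (adjusted p = 0.00131 from limma). It was well above background on 11 OSCC arrays and 9 normal arrays.

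Il1a, the interleukin 1 stored in epithelial cells (chr3:116913748-116913807, minus strand), had log2 levels from -4.97 to -1.93 in normal tissue, where the median was -2.98, and from -4.52 to 2.59 in OSCC, where it was 0.94. Only the OSCC of animals 24 and 22 fell within the normal range. The difference was 3.07 ± 0.59, or 8.37-fold (adjusted p = 0.00204 from limma), with 10 of 11 pairs higher. This probe was well above background on 10 OSCC arrays and 8 normal arrays. The dimmer Il1a probe printed above gave 3.49 ± 0.56 (adjusted p = 0.000818). It was well above background on 8 OSCC arrays and on 0 normal arrays, so that its fold is a lower limit, at least 4.43-fold, set on each normal array by its faintest probe still detected above background.

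Il18 (chr8:53943005-53943064, plus strand), which drives interferon gamma production, and the alarmin Il33 (chr1:233685259-233685318, plus strand) moved less and were not called. Il18 had log2 levels from -2.81 to -1.40 in normal tissue, where the median was -2.31, and from -2.71 to -0.13 in OSCC, where it was -0.99. The groups overlapped, with 8 OSCC arrays above all normal ones and the OSCC of animal 22 close to the lowest normal level. Its difference of 0.99 ± 0.31 passed the adjusted p (0.0240 from limma) and missed the 2-fold change, with 9 of 11 pairs higher. Without animal 13, 17, 21, 22 or 24 the difference was between 1.00 and 1.22, and Il18 was called. Il33 lay between 0.17 and 0.95 in normal tissue, where the median was 0.74, and between 0.07 and 1.87 in OSCC, where it was 1.23. Its normal levels were the most uniform of the 10 genes (SD 0.22), and only animal 21 had less Il33 in OSCC than in normal tissue. The difference was 0.54 ± 0.17 (adjusted p = 0.0266 from limma), or 1.46-fold.

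The antagonist and the decoy rose as well. Il1rn (chr3:2613130-2613189, plus strand) had log2 levels from 1.15 to 2.53 in normal tissue, where the median was 1.92, and from -0.13 to 4.57 in OSCC, where it was 3.78. On 7 OSCC arrays it lay above all normal levels, and the OSCC of animal 24 fell below all of them. The difference was 1.19 ± 0.42, or 2.29-fold (adjusted p = 0.0375 from limma), with 9 of 11 pairs higher. This call was lost without any 1 of animals 4, 9, 11, 13, 16, 25 and 26, with differences between 1.00 and 1.22 and adjusted p between 0.0630 and 0.0821.

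Il1r2 had log2 levels from -1.35 to 0.18 in normal tissue, where the median was -0.70, and from -1.67 to 2.79 in OSCC, where it was 1.91. It was above the whole normal range on 7 OSCC arrays and below it in the OSCC of animal 24. The difference was 1.71 ± 0.42, or 3.26-fold (adjusted p = 0.00827 from limma), with 9 of 11 pairs higher, and no pair left out in turn ended the call. Il1rn and Il1r2 were well above background on all 22 arrays.

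The receptors were faint. Il1r1, the signalling receptor of interleukin 1 (chr9:39472634-39473165, plus strand), was well above background on 5 OSCC arrays and on 0 normal arrays. Its log2 levels ran from -6.20 to -4.90 in normal tissue, where the median was -5.74, and from -6.04 to -2.85 in OSCC, where it was -4.26. It was the only one of the 10 genes with a higher level in OSCC in all 11 pairs, with a difference of 1.35 ± 0.21 (adjusted p = 0.000797 from limma). No fold is given, since the lower limit was under 1, and with normexp background correction the difference was 0.06 (adjusted p = 1).

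Il1rl1, the receptor of Il33, split the OSCC arrays. Its brighter probe lay between -5.91 and -4.31 in normal tissue (median -5.72), and stood well above background on 0 normal arrays. In OSCC it ranged from -6.30 to -0.60 (median -1.99), and it was well above background in the 7 animals 4, 9, 11, 13, 16, 25 and 26, at levels from -2.84 to -0.60. In animals 17, 21, 22 and 24 it stood between -6.30 and -5.51, within or below the normal range. The difference was 2.27 ± 0.63 (adjusted p = 0.0151 from limma), or at least 1.63-fold, with 8 of 11 pairs higher, and it was 0.89 with normexp correction and not called.

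The Il1rl1 probe across the downstream intron, printed above, gave a smaller value. It lay between -6.59 and -4.67 in normal tissue, where the median was -5.99, and between -6.51 and -3.12 in OSCC, where it was -4.84, and stood well above background on 4 OSCC arrays. The difference was 0.67 ± 0.29 (adjusted p = 0.0735 from limma), with 10 of 11 pairs higher. As background, Il1rl1 makes a soluble form that ends upstream of the exons for the intracellular part, and a longer membrane form. The difference between the values of the 2 probes was not tested.

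The co-receptor Il1rap stayed at background. Its 3 probes were well above background on 0 normal arrays and on 1, 1 and 0 OSCC arrays. The brightest (chr11:76100017-76100076, minus strand) lay between -6.31 and -4.83 in normal tissue and between -6.28 and -4.21 in OSCC. Its difference was 0.33 ± 0.22 (adjusted p = 0.236 from limma), and the other probes gave -0.15 and -0.41 without a call.

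Il6, the cytokine that carries inflammation to the acute phase response, was low. It was well above background on 0 normal arrays (log2 levels -6.56 to -5.15, median -5.97) and on 4 OSCC arrays (-6.87 to -2.05, median -5.30). The 4 were those of animals 4, 11, 13 and 25, with pair differences of 1.96, 3.76, 2.38 and 2.25. In the other 7 pairs the difference lay between -0.95 and 0.99. The mean difference was 1.09 ± 0.37 (adjusted p = 0.0331 from limma), with 9 of 11 pairs higher and no fold, since the lower limit was under 1. The call was lost without any 1 of animals 4, 11, 13, 25 and 26 (0.83 to 1.10, adjusted p between 0.0581 and 0.0726), and the difference was 0.20 with normexp correction.

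**Figure D2:**
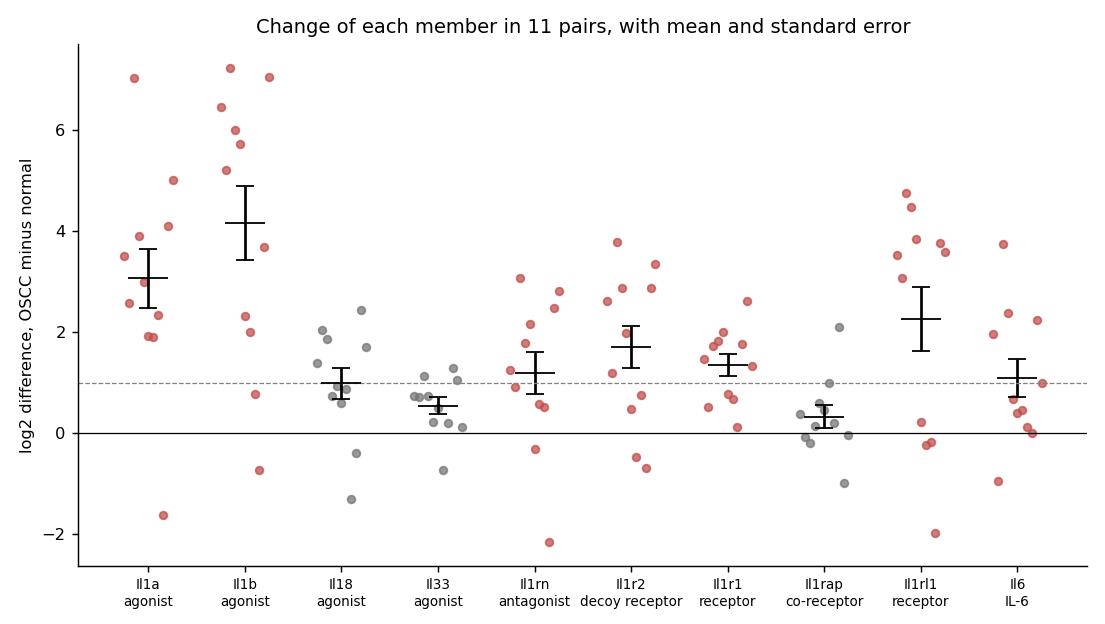
Log2 difference, OSCC minus normal (y axis), of each gene (x axis) in the 11 pairs, with the mean and standard error of limma in black, a dashed line at a 2-fold rise, and genes called higher in red. Il1b and Il1a have the largest means, 4.17 and 3.07, and Il1r1 is the only gene with all 11 points above 0.

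The pairs differed from each other in the same way for several of the genes. In animal 11 the differences were the largest of all pairs for Il1a (7.04), Il1b (7.24), Il1rn (3.07), Il1r2 (3.80), Il1rl1 (4.77) and Il6 (3.76). In animal 24 they were the smallest for Il1a (-1.62), Il1b (-0.73), Il1rn (-2.16), Il1r2 (-0.69) and Il1rl1 (-1.99), and 7 of the 10 genes were lower in its OSCC. The same animal had the largest differences for Il33 (1.30) and Il1rap (2.10). Some of these extremes rest on values not well above background. In animal 11 these were Il1a, Il1rl1 and Il6 in normal tissue. In animal 24 they were Il1a in OSCC, Il1rap in normal tissue and Il1rl1 in both tissues. Markers of other tissues moved with these animals. The mean change of 6 keratinocyte markers was -2.44 in animal 24, against -1.33 to 0.03 in the other 10, and that of 6 skeletal muscle markers was 1.24, 1.31 and 1.02 in animals 21, 22 and 24 and between -4.33 and -0.94 in the other 8. Their part in the interleukin values was not tested. Across the 10 genes the median difference of a pair ran from -0.54 in animal 24 to 3.42 in animal 11.

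**Figure D3:**
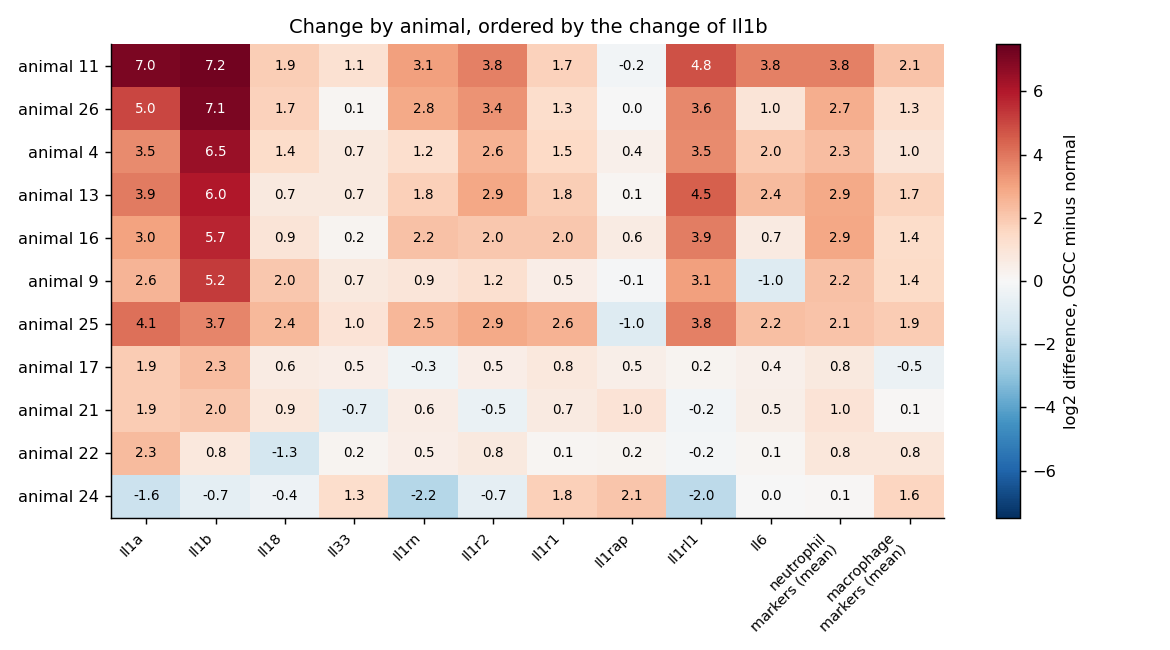
Log2 difference, OSCC minus normal (colour scale and printed values), of each gene (columns) in each animal (rows, ordered by Il1b), with the mean change of 10 neutrophil and 9 macrophage markers in the last columns. Animals 17, 21, 22 and 24, at the bottom, have the smallest changes of Il1b, Il1r2, Il1rl1 and the neutrophil markers. The marker columns are mean levels in OSCC minus those in normal tissue, and S100a8 lacked a value on an OSCC array.

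The pairs scanned within a day, those of animals 4 and 9, gave Il1b differences of 6.46 and 5.22, against a mean of 3.79 in the other 9. The mean of these 2 pairs and of the other 9 was 3.04 and 3.07 for Il1a, 1.08 and 1.22 for Il1rn, 1.90 and 1.66 for Il1r2, and 3.31 and 2.04 for Il1rl1. For Il18 they were 1.72 and 0.83, for Il33 0.73 and 0.50, and for Il1r1 1.00 and 1.43. Il6 differed by 0.50 and 1.23 and Il1rap by 0.15 and 0.37. All 10 means thus had the same sign in the 2 pairs of 1 day and in the other 9. Animals 4 and 9 differed in sign for Il6 (1.96 and -0.95) and Il1rap (0.37 and -0.08). In a fit to the 9 pairs alone, 5 of the 10 genes were called, and the calls of Il1rn (adjusted p = 0.109 from limma) and Il1rl1 (adjusted p = 0.0735 from limma) were lost. With scan day as a further term, which leaves the difference to rest on 2 pairs, 0 of the 10 genes were called by limma, 3 of them changed 2-fold at an unadjusted p below 0.05, and 3 of all 30367 probes were called.

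The size of the changes was compared between genes within each pair, in a two-sided exact permutation test that flips the signs of the pairs, with adjustment over 8 comparisons. Array scaling cancels in such a difference. Il1b rose by 2.97 ± 0.50 log2 units more than its antagonist Il1rn (SE, 11 pairs), in 11 of 11 pairs (adjusted p = 0.00391). Il1a exceeded Il1rn by 1.87 ± 0.27, also in 11 of 11 pairs (adjusted p = 0.00391). The change of Il1b was larger than that of the decoy Il1r2 by 2.46 ± 0.47, in 10 of 11 pairs (adjusted p = 0.00469, exact test). These are differences between fold changes and say nothing of the amounts of agonist and antagonist, since levels of different probes are not comparable.

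Il1b also changed more than Il18, by 3.18 ± 0.63 (10 of 11 pairs, adjusted p = 0.00469, exact test). The measured differences from Il1r1 (2.82 ± 0.78) and Il6 (3.07 ± 0.68) are given as values only, since neither gene was well above background on a normal array or on most OSCC arrays. The margin of Il1b over Il1a was 1.10 ± 0.45 (9 of 11 pairs, adjusted p = 0.0413, exact test), and was lost without any 1 of animals 4, 9, 13, 16 and 26 (0.92 to 1.00, adjusted p between 0.0723 and 0.0826). Il33 changed less than its receptor Il1rl1, by -1.72 ± 0.69, with 8 of 11 pairs below 0 (adjusted p = 0.0430, exact test), where Il1rl1 was well above background on 0 normal arrays. That difference did not pass without any 1 of animals 4, 9, 11, 13, 16, 21, 25 and 26 (-1.84 to -1.52, adjusted p between 0.0547 and 0.0840), and it was -0.42 (adjusted p = 0.246) with normexp correction.

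Over the 11 pairs, the change of Il1b was set against 11 other changes, with 100000 permutations for each coefficient and adjustment over the 11. The relation was positive with Il1rl1 (Pearson r = 0.94, adjusted permutation p = 0.000605, Spearman rho = 0.83, adjusted p = 0.00590), Il1r2 (r = 0.87, adjusted permutation p = 0.00201, rho = 0.90, adjusted p = 0.00451), Il1rn (r = 0.84, adjusted permutation p = 0.00220, rho = 0.85, adjusted p = 0.00539) and Il1a (r = 0.84, adjusted permutation p = 0.00125, rho = 0.87, adjusted p = 0.00501). The unadjusted permutation p were 1e-04, 0.00073, 0.001 and 0.00034 for r. Without animals 22 and 24, the pairs farthest from the median change of Il1b, r was 0.86, 0.84, 0.72 and 0.74. Within the 9 pairs of 2 scan days it was 0.94, 0.90, 0.90 and 0.88. The relation with Il1rl1 fell to r = 0.31 (adjusted permutation p = 0.493) with normexp correction, while those with Il1r2, Il1rn and Il1a were 0.91, 0.86 and 0.94. In animals 17, 21, 22 and 24 Il1rl1 was well above background in neither tissue, so its changes there lie between background values. These animals also had the smallest changes of Il1b, Il1r2, Il1rn and Il1a, and relations within the other pairs alone were not tested.

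The other members followed Il1b less closely. For Il18 r was 0.71 (adjusted permutation p = 0.0256) and rho 0.60 (adjusted p = 0.0881), and r fell to 0.31 without animals 22 and 24, so that it rests on those pairs. With normexp correction the r of Il18 was 0.27 (adjusted permutation p = 0.493). For Il6 rho was 0.72 (adjusted permutation p = 0.0294) and r 0.55 (adjusted p = 0.110), with r = 0.44 without the same 2 animals and -0.25 with normexp correction. The values for Il1r1 (r = 0.32, rho = 0.26), Il33 (r = 0.07, rho = 0.09) and Il1rap (r = -0.58, rho = -0.55) did not pass, with adjusted permutation p for r of 0.369, 0.840 and 0.0886. Without animals 22 and 24 their r was 0.34, 0.46 and -0.27.

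The markers of neutrophils, which carry much interleukin 1 and Il1r2, moved with these genes. Of 10 neutrophil markers 6 were called higher and 0 lower, led by S100a9 (4.78), S100a8 (4.51) and Csf3r (3.33 log2 units). Their summed level, in multiples of the array's 75th percentile, ran from 0.770 to 4.68 in normal tissue and from 1.72 to 396 in OSCC. S100a8 and S100a9 led this sum, with mean log2 levels of 3.87 and 4.74 in OSCC, against -0.22 for Csf3r, the next highest. S100a8 and S100a9 were also well above background on all 11 normal arrays. Levels of different probes are not comparable, so the sum does not measure the amount of neutrophils. Mpo and Ltf, which neutrophils make before they leave the marrow, were well above background on 0 arrays. The mean change of the 10 markers per pair correlated with that of Il1b at r = 0.93 (adjusted permutation p = 0.000605) and rho = 0.85 (adjusted p = 0.00539), with r = 0.86 without animals 22 and 24, 0.95 in the 9 pairs of 2 scan days, and 0.49 (adjusted permutation p = 0.271) with normexp correction. Taken as the mean marker level in OSCC minus that in normal tissue, the change was 0.11 to 1.01 in animals 17, 21, 22 and 24. It was 2.13 to 3.76 in the other 7. This measure differs from the one used for r in the pair where S100a8 had no value in OSCC.

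Of 9 macrophage markers 5 were called higher (Msr1 with 2.43 log2 units and at least 1.25-fold, Cd68 with 4.01-fold and Mrc1 with 3.17-fold leading) and 0 lower. Their summed level, led by C1qa and C1qb, was 13.0 to 29.7 in normal tissue and 15.8 to 52.5 in OSCC. This sum does not measure the amount of macrophages either. Of these markers, Marco was well above background on 0 arrays. Their mean change had r = 0.40 with that of Il1b (adjusted permutation p = 0.279) and rho = 0.37 (adjusted p = 0.319), with r = 0.72 without animals 22 and 24 and 0.43 in the 9 pairs of 2 scan days. Whether the neutrophil and macrophage relations differ was not tested. The part of either cell type in the changes of the interleukin genes was not tested.

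**Figure D4:**
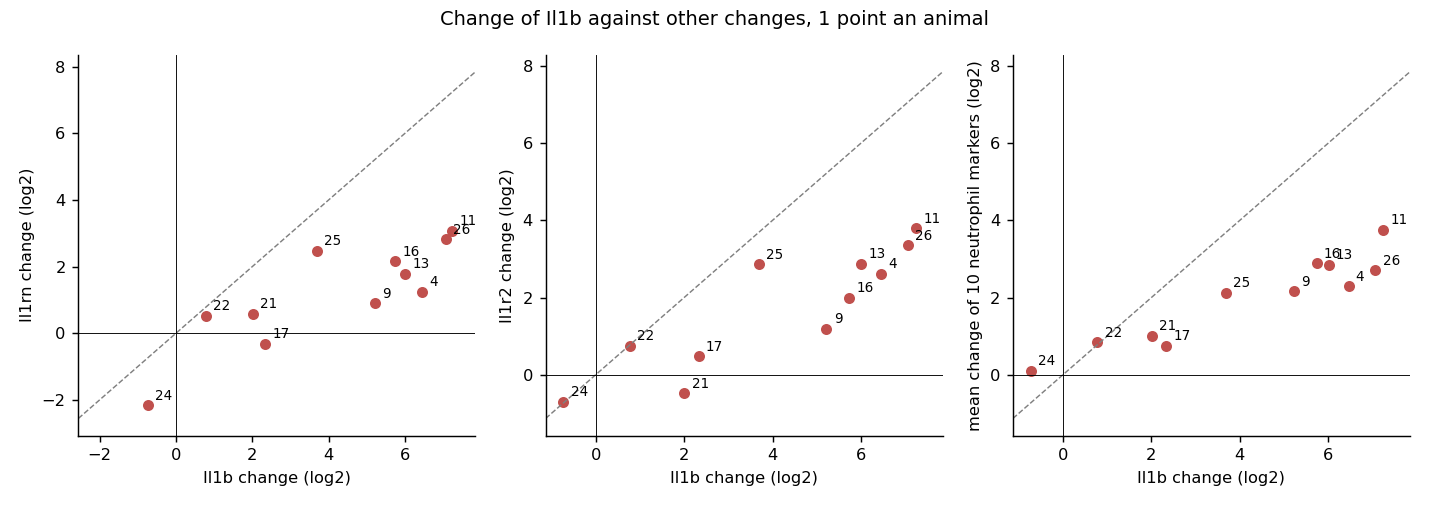
Log2 change (OSCC minus normal) of Il1rn, Il1r2 and the mean of 10 neutrophil markers (y axes) against that of Il1b (x axes), 1 point an animal with its number, and a dashed line of equal change. The correlations are r = 0.84, 0.87 and 0.93, and every point of the first panel lies below the line. In 1 pair S100a8 had no value in OSCC, and the plotted marker mean differs from the one used for r.

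Other sources of tissue moved between the groups as well. T cell markers were called higher for 5 of 7 (Cd8a 3.11, Cd3e 1.70, Lck 1.49), a count of 2 or 3 without animal 9, 11, 13, 25 or 26, and fibroblast markers for 4 of 5. With normexp correction 1 of each was called, and 3 of the macrophage markers. Serous gland markers were called higher for all 5 on the array (median 8.73), and skeletal muscle markers lower for 4 of 6 and higher for 1. Mast cell markers, whose cells bear Il1rl1, were called lower for 2 of 8 (Cma1 -1.65, Ms4a2 -1.36) and higher for 0. Keratinocyte markers were called lower for 1 of 6 (Krt15 -2.54) and endothelial markers for 0 of 6, with 0 of either called higher. The part of these tissues in the values was not tested.

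The other ligands and receptors of the family were led by the interleukin 36 genes, which signal in epithelium through Il1rl2 and Il1rap. Of 12 genes 4 were called higher and 1 lower, with a median of 0.40. Il36g (named Il1f9 on the array) rose by 4.38 ± 0.61 and Il36a (Il1f6) by 3.67 ± 0.58, each in 11 of 11 pairs (adjusted p = 0.000433 and 0.000771 from limma). The antagonist Il36rn (Il1f5) rose by 1.48 ± 0.35 (adjusted p = 0.00623) while Il1f10 fell by 1.09 (adjusted p = 0.0146), a gene detected above background on only 2 normal arrays and 1 OSCC array, whose call was lost without animal 4, 9, 13 or 24. The receptor Il1rl2 differed by 0.09 ± 0.33 (adjusted p = 0.838) and the Il18-binding protein Il18bp by 0.39 ± 0.25 (adjusted p = 0.214).

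Of 7 inflammasome and processing genes, 5 were called higher and 0 lower (median 1.10). Without animal 11 or 25 the count was 3, and with normexp correction limma called 0 of the 7, and 0 of them at a 2-fold change with an unadjusted p below 0.05. The sensors Nlrp3 and Nlrc4 were well above background on 7 OSCC arrays each and on 0 normal arrays, with differences of 2.21 ± 0.42 and 2.04 ± 0.33, at least 1.20-fold and 1.70-fold. Casp8 rose by 1.34 ± 0.16 in 11 of 11 pairs (adjusted p = 0.000210 from limma). Casp1, which cuts Il1b and Il18, rose by 1.10 ± 0.24 (adjusted p = 0.00376 from limma), and the adaptor Pycard differed by -0.15 ± 0.14 (adjusted p = 0.398).

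Few genes of the chain between receptor and nucleus reached a 2-fold change. Of 19 Myd88 and NF-kB genes, 1 was called higher and 0 lower (median 0.30). This was Nfkbiz, a nuclear cofactor of NF-kB that interleukin 1 induces, at 1.04 ± 0.32 (adjusted p = 0.0226 from limma), and it was not called without animal 9, 11, 16, 25 or 26, which left 0 of the 19. Nfkb2 and Nfkb1 differed by 0.88 and 0.75, with adjusted p below the threshold and less than a 2-fold change.

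Of 15 genes of the interleukin 6 family and its signalling, 5 were called higher and 0 lower (median 0.51). The higher count was 3 with normexp correction, with dim probes removed, with slide as a random block and in the pairs of 2 scan days, and 2 were called lower with arrays scaled to their median and without animals 21, 22 and 24. Osm, a relative of Il6 made by myeloid cells, rose by 2.89 ± 0.63 (adjusted p = 0.00415 from limma), at least 3.44-fold, and stood well above background on 9 OSCC arrays and 0 normal arrays. Socs3, the feedback inhibitor that Stat3 induces, rose by 2.39 ± 0.39 in 11 of 11 pairs (adjusted p = 0.000942 from limma), and Il11 by 2.36 ± 0.78 (at least 2.92-fold, adjusted p = 0.0316 from limma). Stat3 itself differed by 0.02 ± 0.12 and the receptor Il6ra by -0.39 ± 0.13 (adjusted p = 0.0295), and the probe of the shared receptor Il6st was well above background on 0 arrays.

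Known targets of interleukin 1 and 6 had a higher median than the 10 interleukin genes and the other 4 pathway lists. The list was chosen with earlier results of these data known, among them the rises of Cxcl2, Hp and Lcn2, so this rank is no test. Of 14, 9 were called higher and 0 lower, with a median of 2.61. The neutrophil chemokine Cxcl2 rose by 5.99 ± 0.90 (10 of 11 pairs, adjusted p = 0.000600 from limma). The acute phase gene Hp rose by 5.49 ± 0.44 and Lcn2 by 5.39 ± 0.51, each in 11 of 11 pairs. Both were above background on 10 OSCC arrays and on 0 normal arrays, so that the folds are lower limits, at least 14.5-fold and 12.1-fold. The liver acute phase genes Fgb and Fgg were well above background on 0 arrays.

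**Figure D5:**
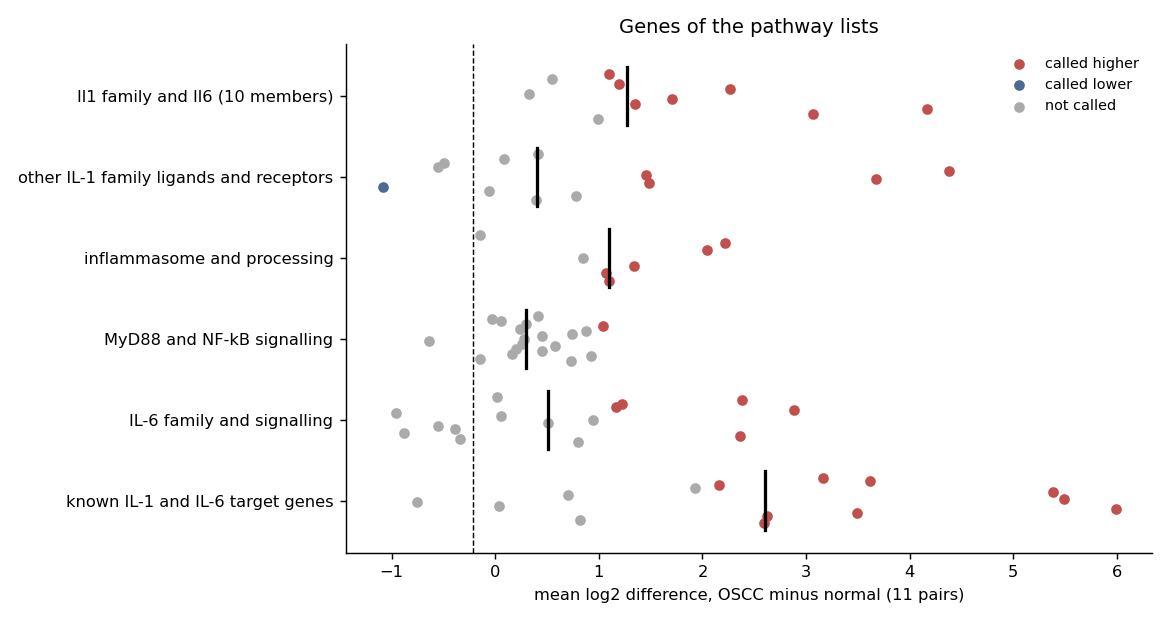
Mean log2 difference over 11 pairs (x axis) of each gene (points) in the 10 interleukin genes and 5 lists of related genes (y axis), coloured by call, with a black bar at the median of each list and a dashed line at the median of all genes, -0.21. Of the 6 medians shown, that of the targets is the highest, 2.61, and that of the Myd88 and NF-kB genes the lowest, 0.30.

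Genes whose log2 level followed a member over the 11 OSCC arrays were ranked by Pearson r, among 10142 or 10143 genes well above background on all of them, as a description in which all points share their arrays. For Il1b the highest were LOC691993 and the chemokine Ccl3 (both r = 0.99), then Adam8, Wsb1 and Bcl3 (each 0.98). For Il1rn they were Actr3 and Igsf8 (0.99), Mmp3 (0.99), Unc45a and Gch1 (0.98). For Il6 they were Tspan31, Acot7, Fads3, Marveld1 and Bcar1 (0.92 to 0.94), where 7 of the 11 Il6 values were not well above background, and for Il33 they were Stard13, Tmem168, Dclre1a, Agpat4 and RGD1562551 (0.91 to 0.94). No listed gene appeared under more than 1 member, but such short lists cannot show whether members share the genes that follow them.

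The promoters of Il1b and Il6 are shown because Il1b and Il6 are induced through C/EBP and NF-kB factors. RefSeq (assembly GRCr8) gave a promoter for 9 of the 10 genes, and the 250 bases before the annotated start were searched on both strands. Capitals mark matches to the C/EBP motif TTNNGNAA and to the NF-kB consensus motif. Il1b lies at chr3:137036582-137036831 and Il6 at chr4:5894576-5894825, both on the minus strand.
Il1b: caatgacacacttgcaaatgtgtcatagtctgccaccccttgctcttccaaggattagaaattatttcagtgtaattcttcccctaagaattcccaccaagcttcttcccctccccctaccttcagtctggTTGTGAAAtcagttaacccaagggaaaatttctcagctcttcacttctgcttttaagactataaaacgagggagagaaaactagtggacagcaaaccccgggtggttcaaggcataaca
Il6: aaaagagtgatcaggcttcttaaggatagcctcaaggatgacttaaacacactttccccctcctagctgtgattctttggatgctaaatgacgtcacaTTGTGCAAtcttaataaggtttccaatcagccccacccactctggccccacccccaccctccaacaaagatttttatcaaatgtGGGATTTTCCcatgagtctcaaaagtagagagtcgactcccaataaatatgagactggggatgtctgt

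The C/EBP motif had a match in 5 of the 9 promoters (Il1a, Il1b, Il33, Il1rn and Il6) and in 36.8% of 27457 promoters of all genes. The NF-kB motif had a match in 3 (Il1r1, Il1rap and Il6), 68 bases before the start in Il6, and in 6.41% of all promoters. The AP-1 motif TGANTCA matched in Il1a alone (6.36% of all) and the STAT motif TTCNNNGAA in 0 of the 9 (7.52% of all).  A match is a description of the letters and not a site of binding.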

How the data were processed

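Pieces of OSCC and of adjacent normal tongue from 11 rats were measured on 22 Agilent arrays. The authors deposited Feature Extraction files (version 9.5.3.1, probes mapped to rn4) whose intensity values had been background-subtracted and spatially detrended, with flags (another value, 0 or 1) for probes well above background. The authors also deposited a ratio of the signal to each array's 75th percentile. Here, 9196 outlier spots (0.975%) were left out, log2 intensities were averaged over the spots of a probe, and the array's 75th percentile was subtracted. No dim probe was removed. Limma 3.58.1 (R 4.3.3) was fitted to all 30367 probes with animal and tissue as terms, and numpy 2.4.6 and scipy 1.17.1 gave the permutation tests. Pairing came from 1 rat giving both tissues, and the deviations of its arrays correlated between -0.21 and 0.24 (median -0.025). Scripts were tested on simulated data.

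All members were named, and of each related list at most the 3 called genes with the largest change in each direction, with the 5 genes most like Il1b, Il1rn, Il6 and Il33. Genes named beside these (Casp1, Pycard, Stat3, Il6ra, Il6st, Il1rl2, Il18bp, Nfkb1, Nfkb2, Ikbkg, Chuk, Tab1, Fgb, Fgg, Mpo, Ltf, Camp, Mmp8, C1qa, C1qb and Marco) were chosen for their role or change after their values were seen. The members, lists and tests were chosen with earlier results of these data known. Alternatives were other scalings (quantile, median, detected probes), normexp background correction, the deposited ratio, a filter on dim probes, no animal term, scan day, slide, an intensity trend, the methods' t-test, other probes of a gene, and each pair left out. The number of arrays limits the precision. Protein sequences were not used here.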

Additional observations from a re-analysis of the deposited data

How the results depend on the processing

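The count of interleukin genes called higher, 7 of 10, was within 1.5 times of that under every alternative but 3. It was 3 with normexp background correction (Il1a, Il1b and Il1r2), 4 of the 6 genes that remained after dim probes were removed, and 0 with scan day as a further term, where 3 changed 2-fold at an unadjusted p below 0.05 in limma. Leaving out 1 pair at a time, the count lay between 5 and 8, and the count called lower was 0 to 0. Without the replicate block, that is without the animal as a term, 7 were called, as in the paired fit, and the block changed no call of a member. Without animals 21, 22 and 24 the count was 8. The methods' paired t-test, at its unadjusted threshold, called 7, and after Benjamini-Hochberg adjustment 5.

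The difference between the changes of Il33 and Il1rl1 was -0.42 with normexp correction, where Il1rl1 is faint, and lay between -2.22 and -1.52 with each pair left out. For Il1b over Il1a this range was 0.92 to 1.37. The other 6 comparisons between changes, 2 of them with genes at background (Il1r1 and Il6), kept their direction and their side of the threshold with normexp correction, without animals 21, 22 and 24, and with each pair left out. The other Il1rap probes reversed its sign, at -0.15 and -0.41, and the relations of Il1b with Il1r1 and Il6 reversed with normexp correction, to r = -0.45 and -0.25. The cause was not tested. Of the other tested values for single genes and relations, 214 kept direction and side of the threshold, 35 lost it and 8 gained it. Of the list counts, 615 stayed within 1.5 times, 68 fell and 7 rose by more, and 10 rose from 0.

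Over all probes, 2083 were called higher and 2118 lower, against 1541 and 3154 with arrays scaled to their median, 2407 and 1798 with arrays scaled on detected probes alone, 686 and 1015 with normexp correction, and 0 and 3 with scan day. The median log2 difference of all probes was -0.24, and -0.44, -0.15, -0.08 and -0.39 in these 4. All 10 members had a positive difference under each of them. For Il1r1, Il1rap, Il1rl1 and Il6, signal over background limits what the arrays can show in normal tissue.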
